A study of Mus musculus with 3 samples.

Results

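The genes described here are 10 members of the prostaglandin and leukotriene pathway, *Ptgs1*, *Ptgs2*, *Ptgds*, *Hpgds*, *Ptges*, *Hpgd*, *Ptger2*, *Ptger4*, *Alox5* and *Alox5ap*, chosen by symbol from the 31053 genes of the feature table because niacin acts in part through prostaglandins. Each symbol matched 1 gene. They were read in live single cells from the tumor-bearing brains of a syngeneic glioblastoma (GBM) mouse model, in which brain tumor-initiating cells of the line BT0309, derived from NPcis mice (*Nf1* and *Trp53* heterozygous) and marked with firefly luciferase and GFP, had been implanted in the right striatum of female wild-type C57BL/6 mice aged 6 to 8 weeks. All 3 droplet libraries come from such tumor-bearing mice. In 1 library the mice had received saline (vehicle replicate 2), and in 2 libraries niacin at 100 mg/kg by daily intraperitoneal injection from day 7 (niacin replicates 1 and 2). Tissue within a 2 mm section at the injection site was taken at week 4, freed of myelin and sorted for live cells. Each library is a pool, of 5 mice by Methods and of 4 brains by the labels, and the tumor line is a single line, so no value belongs to an individual mouse or to other tumors.

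Prostaglandins and leukotrienes are lipid mediators made from arachidonic acid. The cyclooxygenases COX-1 (*Ptgs1*) and COX-2 (*Ptgs2*) form prostaglandin H2, which terminal synthases turn into prostaglandin D2 or E2 and other products. The 5-lipoxygenase (*Alox5*), helped by its activating protein (*Alox5ap*), forms leukotriene A4, the parent of the neutrophil attractant leukotriene B4 and of the cysteinyl leukotrienes. In brain, COX-1 is well known in microglia and lipocalin-type prostaglandin D synthase in the choroid plexus and leptomeninges, and the flush that follows niacin is a textbook prostaglandin D2 and E2 response of skin.

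The genes for the 2 cyclooxygenases lie on different chromosomes of GRCm38. *Ptgs1* is at chr2:36230426-36252272 and *Ptgs2* at chr1:150100031-150108227, both on the plus strand and both protein coding. The 250 bases upstream of their starts are shown because these genes do the same chemistry but, as described below, were read in different cells. Capitals mark GAGGAA, the core of the motif bound by PU.1, a transcription factor of myeloid cells. Both sequences are from the RefSeq table of GRCm38.p6 and are written 5′ to 3′ on the plus strand.
Ptgs1 upstream, chr2:36230176-36230425: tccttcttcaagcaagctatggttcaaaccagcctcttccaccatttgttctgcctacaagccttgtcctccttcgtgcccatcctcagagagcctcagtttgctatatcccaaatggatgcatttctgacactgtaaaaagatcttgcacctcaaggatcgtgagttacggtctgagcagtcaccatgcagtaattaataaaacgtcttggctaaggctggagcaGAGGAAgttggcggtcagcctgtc
Ptgs2 upstream, chr1:150099781-150100030: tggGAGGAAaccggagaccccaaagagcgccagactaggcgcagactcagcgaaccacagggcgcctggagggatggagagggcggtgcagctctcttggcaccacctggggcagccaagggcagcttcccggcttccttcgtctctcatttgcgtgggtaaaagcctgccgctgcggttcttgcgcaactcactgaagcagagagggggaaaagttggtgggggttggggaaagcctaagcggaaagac
The motif begins at base -24 in *Ptgs1* and at base -247 in *Ptgs2*, counted back from the annotated start. On either strand it occurs in the windows of 6 of the 9 members found in the table and in 23.3% of all 32851 promoters. TATAAA (12.4% of promoters) and TGACG (17.8%), the core of the cyclic AMP response element, were in none of the 9. These are letter matches in a short window and say nothing about what binds there. *Alox5ap* had no entry.

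Of 6947 barcodes, 924 distinct sequences occurred in more than 1 library, and niacin replicates 1 and 2 shared 892. A shared barcode was kept only in a library that held at least 80% of its UMIs (unique molecular identifiers, counts of captured RNA molecules), which left 4270 cells after quality control, 1264 of vehicle replicate 2, 1412 of niacin replicate 1 and 1594 of niacin replicate 2. Library totals ran from 8301228 to 10359526 UMIs. Cells were placed in classes by 18 lists of 10 lineage markers, none of which holds a member, so that the members had no part in setting the classes. A class was given to 3899 cells. Microglia-like cells numbered 404, 834 and 946 in the order vehicle replicate 2, niacin replicate 1 and niacin replicate 2, and monocyte- and macrophage-like cells 258, 71 and 75. The same order is used for every run of 3 values below. Neutrophil-like (68, 63 and 46 cells), T-cell-like (188, 124 and 143), B-cell-like (20, 33 and 44) and choroid-plexus-epithelial-like cells (35, 124 and 125) also reached 10 cells in every library. Basophil- and mast-cell-like cells (5, 29 and 35), whose leading genes were *Mcpt2*, *Tpsb2* and *Cpa3*, entered a separate fit with a minimum of 5 cells, added after the data had been seen.

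The 10 genes differed in the classes that held their UMIs. *Ptgs1*, *Hpgds* and *Hpgd* were read almost entirely in microglia-like cells, which held 95.2% of 7438, 93.1% of 8163 and 91.4% of 4418 UMIs, and *Ptgds* in choroid-plexus-epithelial-like cells, which held 98.1% of 3456 UMIs. *Alox5ap* (8240 UMIs) and *Alox5* (569 UMIs) were shared by several myeloid classes. *Ptger4* (557 UMIs), *Ptgs2* (380 UMIs) and *Ptger2* (67 UMIs) were sparse, and *Ptges* had 8 UMIs in all. Levels are given as counts per 1000000 UMIs of a class in a library (CPM), which count 3′ ends and carry no gene length term, so levels are compared between classes and not between genes.

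**Figure D1:**
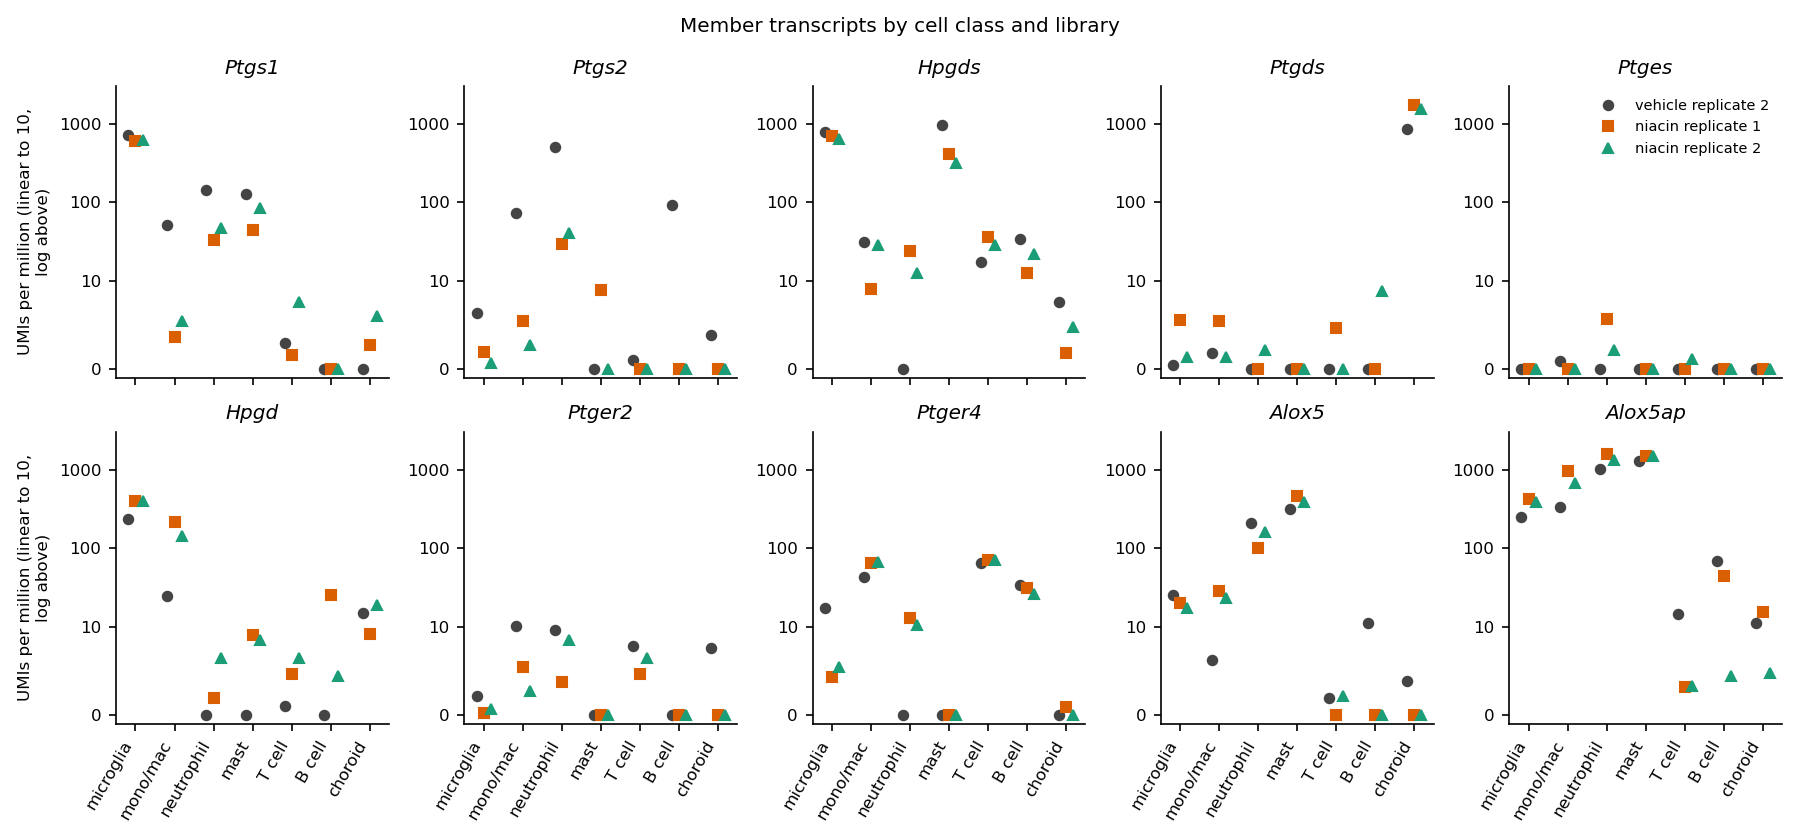
CPM of each member (vertical axis, linear to 10 and logarithmic above) in 7 cell classes, with 1 point per library. *Ptgs1*, *Hpgds* and *Hpgd* peak in microglia-like cells, except that *Hpgds* overlaps there with basophil- and mast-cell-like cells, *Ptgds* peaks at 855 to 1742 CPM in choroid-plexus-epithelial-like cells, and the vehicle point lies far above the niacin points for *Ptgs2* in neutrophil-like cells.

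Cyclooxygenase-1 was read mainly in microglia-like cells. *Ptgs1* stood at 721, 608 and 629 CPM in microglia-like cells (653 ± 60.4, SD, n = 3 libraries of both treatments), against 145, 33.9 and 47.2 CPM in neutrophil-like cells. Monocyte- and macrophage-like cells had 51.6, 3.63 and 5.48 CPM. Every microglia-like value lay above every value of the other classes. Shares of cells were read after thinning to 2000 UMIs, and cells with fewer UMIs were left out. This kept 281 of 404, 664 of 834 and 651 of 946 microglia-like cells. Of those kept, 68.7%, 67.9% and 68.5% had a *Ptgs1* UMI. In T-cell-like cells, which should lack the gene and give the level of free RNA, the shares were 0.752%, 0 and 2.48%, at class medians of 5280, 5588.5 and 6392 UMIs per cell against 5319.5, 4961 and 4940.5 UMIs in microglia-like cells. The 0 was a count of none among 82 cells and leaves room for a share of 3.66%. In edgeR's quasi-likelihood test on UMI sums with library as a block, *Ptgs1* was higher in microglia-like than in monocyte- and macrophage-like cells by 4.93 ± 0.53 on the log2 scale (SE, adjusted p = 4.88e-07). The estimate was 6.92 without vehicle replicate 2 and stayed past the threshold whichever library was left out.

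Cyclooxygenase-2 was read elsewhere. *Ptgs2* stood at 499, 30.1 and 40.7 CPM in neutrophil-like cells, from 103, 16 and 19 UMIs in 26 of 68, 7 of 63 and 5 of 46 cells. Monocyte- and macrophage-like cells had 73.2, 5.44 and 2.74 CPM, from 163, 3 and 2 UMIs, and microglia-like cells 6.43, 1.93 and 0.657 CPM. In both myeloid classes vehicle replicate 2 held most of the molecules. Thinned to 2000 UMIs, 34.2%, 12.2% and 11.9% of the 38, 41 and 42 neutrophil-like cells kept had a *Ptgs2* UMI. None of 133, 82 and 121 T-cell-like cells did, which allows shares of up to 2.26%, 3.66% and 2.48%. The gene was 3.11 ± 0.40 higher on the log2 scale in neutrophil-like than in monocyte- and macrophage-like cells (SE, edgeR adjusted p = 9.01e-06), a pair chosen after the values had been seen. It was 2.98 lower in microglia-like than in monocyte- and macrophage-like cells (log2 -2.98 ± 0.47, edgeR adjusted p = 3.33e-05). That last difference rested on vehicle replicate 2, without which it was -1.69 on the log2 scale (edgeR adjusted p = 0.262). In B-cell-like cells, 91.7 CPM in vehicle replicate 2 came from 8 UMIs of 1 cell, and both niacin libraries were at 0.

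Prostaglandin D2 has a hematopoietic and a lipocalin-type synthase, and these were read in separate cells. *Hpgds*, the hematopoietic synthase, stood at 774, 689 and 643 CPM in microglia-like cells (702 ± 66.8, SD, n = 3) and at 956, 408 and 316 CPM in basophil- and mast-cell-like cells, the first of these from 5 cells. The classes overlapped through vehicle replicate 2, and their difference was -0.77 ± 0.38 on the log2 scale (mast-cell-like minus microglia-like, SE, edgeR adjusted p = 0.162). It passed the threshold in 1 of the alternatives described below and not in 2. Within each niacin library the exact Poisson intervals were apart, with microglia-like cells higher (664 to 714 against 297 to 545 CPM and 620 to 666 against 222 to 435 CPM). In vehicle replicate 2 they overlapped (739 to 811 against 535 to 1576 CPM). Monocyte- and macrophage-like cells were at 31.9, 9.07 and 28.8 CPM and T-cell-like cells at 17.8, 36.0 and 29.2 CPM. *Hpgds* was 4.65 ± 0.43 higher on the log2 scale in microglia-like than in monocyte- and macrophage-like cells (SE, edgeR adjusted p = 2.99e-08).

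Both genes needed for prostaglandin D2, the cyclooxygenase *Ptgs1* and the synthase *Hpgds*, were often read in the same microglia-like cell. Thinned to 2000 UMIs, 54.1%, 48.3% and 49.3% of the microglia-like cells kept had a UMI of both, and 52.3%, 48.0% and 47.4% would if the genes were drawn independently. The cells that had both were thus about as many as the separate shares gave.

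*Ptgds*, the lipocalin-type synthase and a secreted carrier protein of cerebrospinal fluid, stood at 855, 1742 and 1532 CPM in choroid-plexus-epithelial-like cells (1376 ± 464, SD, n = 3). In microglia-like cells it was at 0.428, 5.53 and 1.31 CPM, where the 10 choroid plexus markers summed to 53.1, 1057 and 216 CPM in the same order. The part of free choroid plexus RNA in those few molecules was not tested. The difference between these classes was 9.86 ± 0.53 on the log2 scale (SE, edgeR adjusted p = 1.57e-11). *Ptges*, the inducible microsomal synthase of prostaglandin E2, had 4 of its 8 UMIs in neutrophil-like cells, at 5.65 CPM or less in each library, and was removed by the filter on low counts.

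The gene for prostaglandin breakdown was read in microglia-like cells and, at a lower level, in monocyte- and macrophage-like cells. *Hpgd*, which inactivates prostaglandin E2 by oxidation, stood at 233, 399 and 402 CPM in microglia-like cells. The level in monocyte- and macrophage-like cells was 25.1, 218 and 143 CPM. Within each library the microglia-like value was the higher. Choroid-plexus-epithelial-like cells came next at 15.3, 9.24 and 19.1 CPM, and neutrophil-like cells had 4 UMIs in all. Between the first pair *Hpgd* differed by 1.66 ± 0.36 on the log2 scale (SE, edgeR adjusted p = 0.000905). Without library as a block the estimate was 1.34 (adjusted p = 0.0693), and without vehicle replicate 2 it was 1.04 (adjusted p = 0.00105).

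Of the prostaglandin E2 receptors, *Ptger4* (EP4) was read in lymphocytes and in monocyte- and macrophage-like cells. It stood at 66.2, 70.4 and 71.5 CPM in T-cell-like cells (69.3 ± 2.82, SD, n = 3). Monocyte- and macrophage-like cells had 43.5, 65.3 and 67.2 CPM. These neighbors did not differ beyond their spread (log2 0.24 ± 0.38, SE, edgeR adjusted p = 0.686). B-cell-like cells followed at 34.4, 31.7 and 26.5 CPM, and microglia-like cells were at 17.6, 4.33 and 5.48 CPM. In microglia-like cells *Ptger4* was 2.90 lower on the log2 scale than in monocyte- and macrophage-like cells (log2 -2.90 ± 0.41, edgeR adjusted p = 8.17e-06). *Ptger2* (EP2) reached at most 10.3 CPM in any class that was tested and was removed by the filter on low counts. Its 67 UMIs lay in 54 cells, and monocyte- and macrophage-like cells held 41.8% of them.

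*Alox5*, which encodes 5-lipoxygenase, was highest among the tested classes in basophil- and mast-cell-like and neutrophil-like cells. It stood at 319, 462 and 384 CPM in basophil- and mast-cell-like and 213, 99.8 and 161 CPM in neutrophil-like cells. Far below them were microglia-like cells at 25.3, 20.5 and 17.7 CPM and monocyte- and macrophage-like cells at 6.28, 29.0 and 23.3 CPM. The gap between neutrophil-like and microglia-like cells was 3.55 ± 0.39 on the log2 scale (SE, edgeR adjusted p = 3.00e-07). Mast-cell-like and neutrophil-like cells differed by 0.65 ± 0.40 (SE, edgeR adjusted p = 0.282), a difference that passed the threshold without vehicle replicate 2 (0.89, adjusted p = 0.0217). Microglia-like and monocyte- and macrophage-like cells differed by 0.24 ± 0.44 (SE, edgeR adjusted p = 0.694), and the sign turned without vehicle replicate 2 (-0.55, adjusted p = 0.274).

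*Alox5ap*, which encodes the membrane protein that presents arachidonic acid to 5-lipoxygenase, was read throughout the myeloid classes. It stood at 1274, 1467 and 1477 CPM in basophil- and mast-cell-like, 1007, 1579 and 1321 CPM in neutrophil-like and 248, 418 and 391 CPM in microglia-like cells. Between these lay monocyte- and macrophage-like cells at 336, 968 and 675 CPM. T-cell-like cells had at most 14.8 CPM. Microglia-like cells were the lowest of the 4 myeloid classes in each library. Neutrophil-like cells exceeded microglia-like cells by 2.63 ± 0.44 on the log2 scale (SE, edgeR adjusted p = 5.42e-05) and monocyte- and macrophage-like cells by 1.66 ± 0.43 (adjusted p = 0.00726). The latter difference did not pass without niacin replicate 2 (1.56, adjusted p = 0.0552) or when the sums were scaled by library size alone (1.02, adjusted p = 0.0676). Between microglia-like and monocyte- and macrophage-like cells *Alox5ap* differed by -0.97 ± 0.42 (SE, edgeR adjusted p = 0.0696). This difference passed the threshold in 3 of the alternatives described below and not in the other 14. With a library left out it ran from -1.13 to -0.82.

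Of the 10 members, 8 passed the filter on low counts in the comparison of resident microglia-like with monocyte- and macrophage-like cells. Higher in microglia-like cells were 3 of the 8 (*Ptgs1*, *Hpgds* and *Hpgd*), and 21.5% of the 9848 genes tested were. Lower were 2 (*Ptgs2* and *Ptger4*), against 20% of all genes. The members' median difference was -0.16 on the log2 scale and that of all genes 0.11. With shares near those of all genes, the count sets the members apart in neither direction, and what the comparison shows is which of them lies in which cell.

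**Figure D2:**
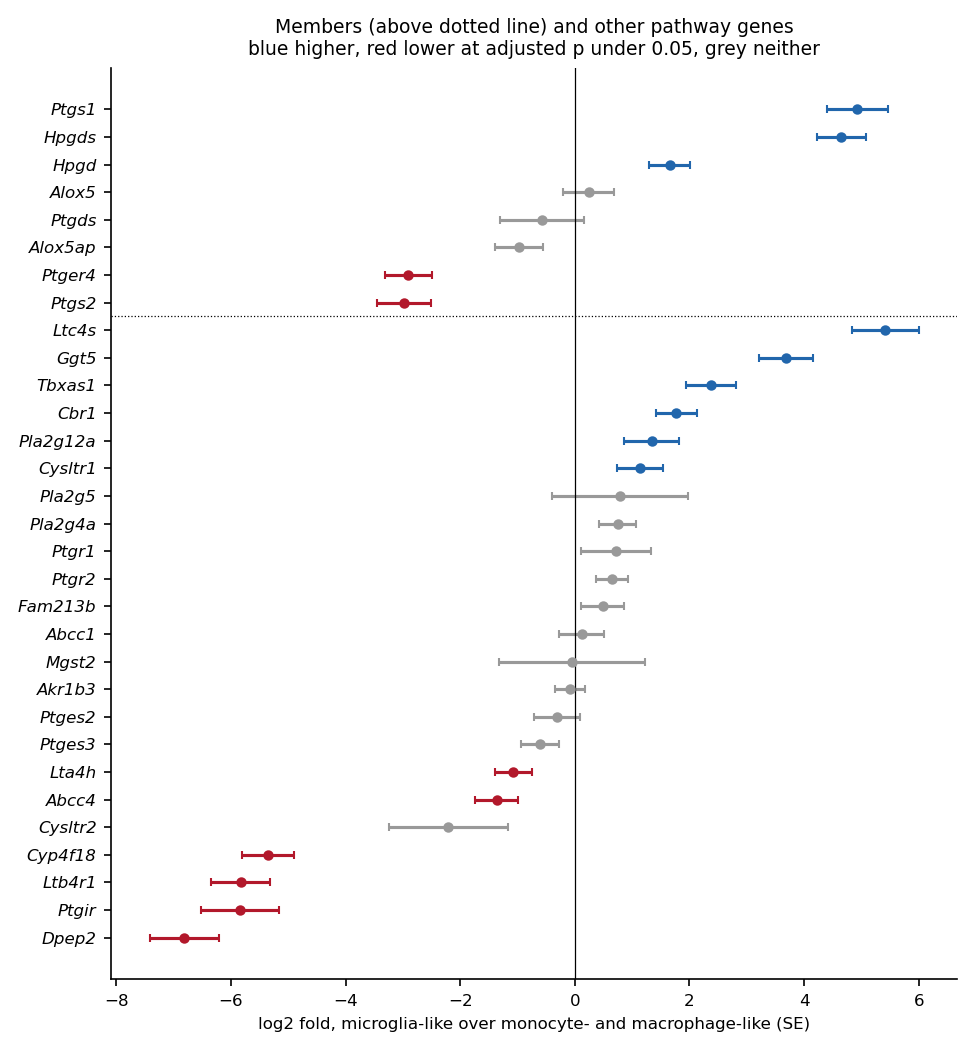
Log2 difference of microglia-like minus monocyte- and macrophage-like cells from edgeR (horizontal axis; bars are SE over the fit) for the 8 members and 23 further pathway genes that were tested, in blue where higher and red where lower at an adjusted p under 0.05 and in grey otherwise. *Ptgs1* and *Hpgds* lie at 4.93 and 4.65, *Ptger4* and *Ptgs2* at -2.90 and -2.98, and the further genes spread to both sides of 0.

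A further 36 genes of the same pathway were read to place the members, and 23 were tested. Of these, 6 were higher in microglia-like cells (21.5% of all genes were) and 6 lower (20%), with a median difference of 0.12 on the log2 scale. These counts lie near the shares of all genes and do not set the pathway apart, so the genes are described singly. *Ltc4s*, the synthase of leukotriene C4, stood at 333, 565 and 587 CPM in microglia-like cells, while monocyte- and macrophage-like cells had 14.8, 5.44 and 1.37 CPM (log2 5.42 ± 0.58, SE, edgeR adjusted p = 2.09e-07). *Ggt5*, which turns leukotriene C4 into D4, differed by 3.69, the thromboxane synthase *Tbxas1* by 2.37, the carbonyl reductase *Cbr1* by 1.77 and the secreted phospholipase *Pla2g12a* by 1.34.

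In the other direction, *Dpep2*, a dipeptidase that acts on leukotriene D4, stood at 1.44 CPM or less in microglia-like cells, and monocyte- and macrophage-like cells had 22.9, 141 and 52.1 CPM. *Ltb4r1*, the high-affinity receptor of leukotriene B4, had 79.4, 97.9 and 52.1 CPM there and at most 2.14 CPM in microglia-like cells. The prostacyclin receptor *Ptgir* had 13.01, 27.2 and 35.6 CPM there and at most 0.722 CPM in microglia-like cells. *Cyp4f18*, which inactivates leukotriene B4, was 5.36 lower on the log2 scale in microglia-like cells (log2 -5.36 ± 0.45, SE) and the exporter *Abcc4* 1.36 lower (log2 -1.36 ± 0.38, SE). With *Lta4h* (log2 -1.07 ± 0.33, SE), the enzyme that makes leukotriene B4, these are the 6 lower genes. Between these 2 classes, the cysteinyl leukotriene synthase was thus read with *Ptgs1* and *Hpgds* in microglia-like cells, and the leukotriene B4 receptor outside them. *Ltc4s* was also read in choroid-plexus-epithelial-like cells, at 130 to 302 CPM, where *Ptgs1* and *Hpgds* were at 7.63 CPM or less.

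Against the mean of the other classes, 5 of the 8 members were higher in microglia-like cells (*Ptgs1*, *Alox5ap*, *Hpgds*, *Alox5* and *Hpgd*; 32.7% of all genes were higher), 4 in monocyte- and macrophage-like cells (*Ptgs2*, *Alox5ap*, *Hpgd* and *Ptger4*; 21.4%) and 4 in neutrophil-like cells (*Ptgs2*, *Ptgs1*, *Alox5ap* and *Alox5*; 19.6%). In T-cell-like cells *Ptger4* was higher (18.4%), and in choroid-plexus-epithelial-like cells *Ptgds* (31.4%). No member was higher in B-cell-like cells (10.4%) by edgeR, and 1 had an unadjusted p under 0.05 in that direction (*Ptgs2*, from the single cell named above). In the fit that held basophil- and mast-cell-like cells, 4 of 8 members were higher there (*Ptgs1*, *Alox5ap*, *Hpgds* and *Alox5*; 6.05% of 9516 genes). *Ptgs2* in monocyte- and macrophage-like cells did not pass without vehicle replicate 2 (adjusted p = 0.234), *Alox5* in microglia-like cells without either niacin library (adjusted p = 0.0587 and 0.0505), by DESeq2 (adjusted p = 0.0660) or in the fit with a minimum of 5 cells (adjusted p = 0.103), and *Ptgs1* in mast-cell-like cells without either niacin library (adjusted p = 0.0581 and 0.168). Between pairs of classes chosen after the values had been seen, neutrophil-like cells were higher than monocyte- and macrophage-like cells in 4 of 8 members (*Ptgs2*, *Ptgs1*, *Alox5ap* and *Alox5*; 10.1% of all genes) and lower in 2 (*Hpgd* and *Ptger4*; 12.7%). Of these, *Ptgs1* did not pass without niacin replicate 2 (log2 1.93, edgeR adjusted p = 0.0532). They were higher than microglia-like cells in 3 (*Ptgs2*, *Alox5ap* and *Alox5*; 18%) and lower in 3 (*Ptgs1*, *Hpgds* and *Hpgd*; 25.3%). Mast-cell-like cells exceeded microglia-like cells in *Alox5ap* and *Alox5* (2 of 8; 6.88%) and were lower in *Ptgs1* and *Hpgd* (2 of 8; 15.4%). Set against neutrophil-like cells, they were higher in *Hpgds* (1 of 8; 8.38%) and lower in *Ptgs2* (1 of 8; 13.9%). Choroid-plexus-epithelial-like cells were higher than microglia-like cells in *Ptgds* (1 of 8; 28.9%) and lower in 6 (34.5%). Fitted sizes are not given for the contrast with the other classes, since a class at 0 among the others sets them.

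Further pathway genes completed the picture per class. Neutrophil-like cells, which led in *Ptgs2* among the classes, also had *Ltb4r1* at 174, 250 and 364 CPM, the glutathione transferase *Mgst2* at 111, 136 and 214 CPM and *Ptgir* at 24.2, 20.7 and 23.6 CPM. T-cell-like cells had the cysteinyl leukotriene receptor *Cysltr2* at 40.5, 17.2 and 37.9 CPM, *Mgst2* at 67.1, 45.4 and 31.4 CPM and *Akr1b3*, an aldo-keto reductase, at 92.8, 114 and 106 CPM. Choroid-plexus-epithelial-like cells had the phospholipase *Pla2g5* at 84.0, 65.6 and 52.7 CPM, the prostamide synthase gene *Fam213b* at 30.5, 40.6 and 67.0 CPM and *Ltc4s* at 130, 268 and 302 CPM. In basophil- and mast-cell-like cells *Tbxas1* (0, 127 and 111 CPM) and the cytosolic phospholipase *Pla2g4a* (63.7, 63.4 and 42.7 CPM) exceeded the mean of the other classes, though microglia-like cells had more of both in every library (at least 232 and 86.1 CPM). In B-cell-like cells *Cyp4f18* did so (68.8, 50.7 and 66.3 CPM), at a lower level than monocyte- and macrophage-like (280 CPM or more) and neutrophil-like cells (105 CPM or more). Each gene of this paragraph was higher than the mean of the other classes, not than each of them, by edgeR at an adjusted p under 0.05.

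With 1 vehicle library, niacin could not be tested against vehicle, and each ratio below compares libraries, with an exact 95% interval that covers counting error only. Members with a mean of at least 10 CPM in a class gave 26 pairs of a member and a class. The mean was taken over all 3 libraries, so a pair could enter through the treatment where it was high. *Ptgs2* in B-cell-like cells (91.7, 0 and 0 CPM) is an example. By log2(CPM + 10), 3 of the 26 were at least 2-fold higher in both niacin libraries and 5 at least 2-fold lower. Over all genes in the 6 classes, under the same filter, 2.45% and 8.59% of pairs were. These counts describe the pairs and are no test.

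In microglia-like cells, none of 5 members moved by 2-fold in both niacin libraries (0.293% of all genes were higher by that much and 1.21% lower). *Ptgs1* was at 0.843-fold (0.792 to 0.897) and 0.871-fold (0.820 to 0.926) of the vehicle level and *Hpgds* at 0.890-fold and 0.830-fold. *Hpgd* and *Alox5ap* lay above vehicle, *Hpgd* at 1.72-fold (1.56 to 1.89) and 1.73-fold (1.57 to 1.91) and *Alox5ap* at 1.68-fold (1.53 to 1.85) and 1.57-fold (1.43 to 1.73), and 2.46% of all genes were at least 1.5-fold higher in both libraries on the log2(CPM + 10) scale. The share of thinned microglia-like cells with an *Hpgd* UMI was 31.3%, 44.4% and 51.0%. Markers of the class differed as well. The 10 microglial markers summed to 9144 CPM in vehicle replicate 2 and 11964 and 12141 CPM in the niacin libraries. They did not move as a set. *Sall1* was lower in both niacin libraries (363, 279 and 278 CPM). *Slc2a5* (332, 325 and 326 CPM) and *Crybb1* (254, 270 and 265 CPM) changed little, and the other markers were higher in both. A UMI of *Cst7*, a gene of reactive microglia, was in 55 of 404 vehicle cells, against 21 of 834 and 35 of 946 niacin cells. Among cells without a *Cst7* UMI, a split chosen after the values had been seen, *Hpgd* was at 270, 404 and 407 CPM.

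Of 7 members with a mean of at least 10 CPM in monocyte- and macrophage-like cells, 4 met the 2-fold rule. *Hpgd* was 8.66-fold (6.25 to 12.1) and 5.67-fold (4.06 to 8.00) above vehicle and *Alox5* 4.62-fold (2.11 to 10.2) and 3.71-fold (1.72 to 8.13) above it (3.01% of all genes were higher by the 2-fold rule). *Ptgs2* was 13.4-fold (4.52 to 65.9) and 26.7-fold (7.27 to 222) below vehicle and *Ptgs1* 14.2-fold (3.85 to 119) and 9.41-fold (3.58 to 35.1) below it (6.64% were lower). *Alox5ap* was 2.88-fold and 2.01-fold above vehicle in CPM and narrowly missed the rule in niacin replicate 2 (log2 0.98), and *Ptger4* was 1.499-fold and 1.54-fold above it. The niacin counts behind the 2 lower genes were 2 to 4 UMIs per library.

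**Figure D3:**
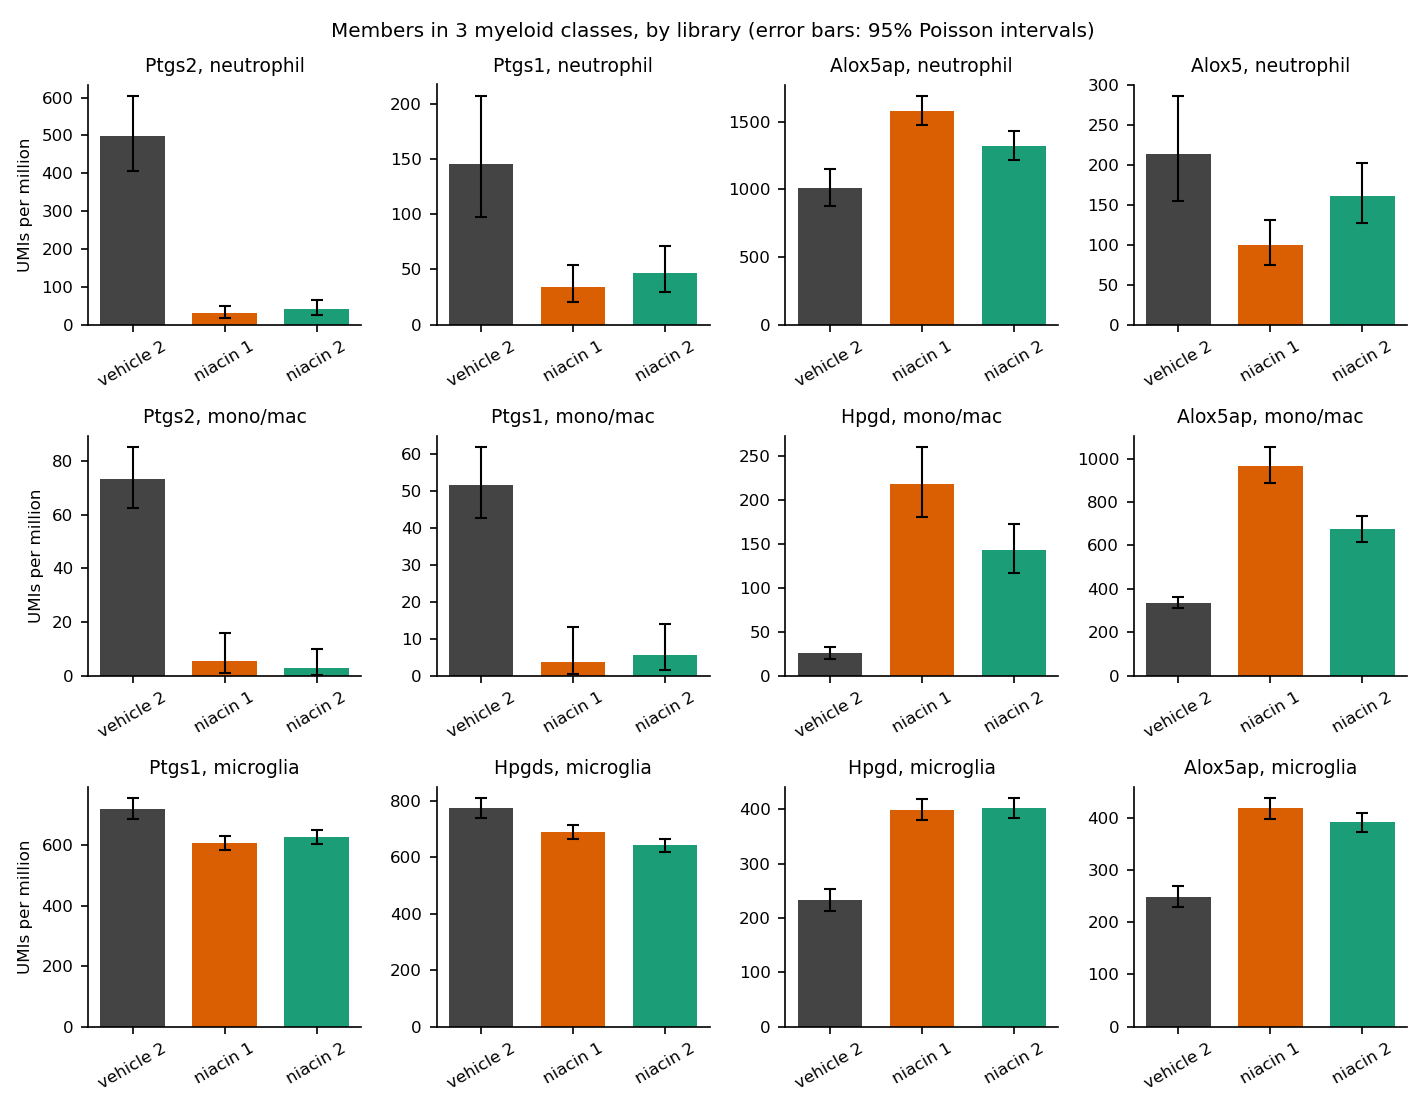
CPM of 4 members in each of 3 classes, neutrophil-like, monocyte- and macrophage-like and microglia-like cells, by library (bars from 0; error bars are exact 95% Poisson intervals). *Ptgs1* and *Hpgds* lie between 608 and 774 CPM in every library of microglia-like cells, *Hpgd* is higher in both niacin libraries in both macrophage-lineage classes, and *Ptgs2* is highest in vehicle replicate 2 in neutrophil-like and in monocyte- and macrophage-like cells.

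The monocyte- and macrophage-like class was not made of the same cells in each library. *Arg1* was read in 68 of 258 vehicle cells and in no niacin cell (715, 0 and 0 CPM). *Ear2* (63.3, 794 and 647 CPM) and *Treml4* (40.4, 395 and 304 CPM), genes of nonclassical monocytes, were higher in the niacin libraries, and *Ly6c2* (2020, 228 and 772 CPM) and *Fn1* (910, 192 and 245 CPM), genes of classical monocytes, were lower. A UMI of *Ear2* or *Treml4* was present in 50 of 258, 66 of 71 and 55 of 75 cells.

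The members were therefore read on both sides of that split, which was chosen after the values had been seen. In cells with *Ear2* or *Treml4*, *Hpgd* was at 79.6, 232 and 142 CPM, and without either at 7.70, 0 and 143 CPM, where niacin replicate 1 had 5 cells. In vehicle replicate 2 the intervals of *Hpgd* in the positive cells (57.6 to 107 CPM) and in the others (4.10 to 13.2 CPM) did not meet. *Ptgs2* had the opposite lean in that library, 33.3 CPM with and 85.9 CPM without. *Ptgs1* was at 105, 3.86 and 7.49 CPM in positive cells, so that the low niacin values stood on that side of the split as well. How much of each difference comes from the mix of cells was not tested.

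**Figure D4:**
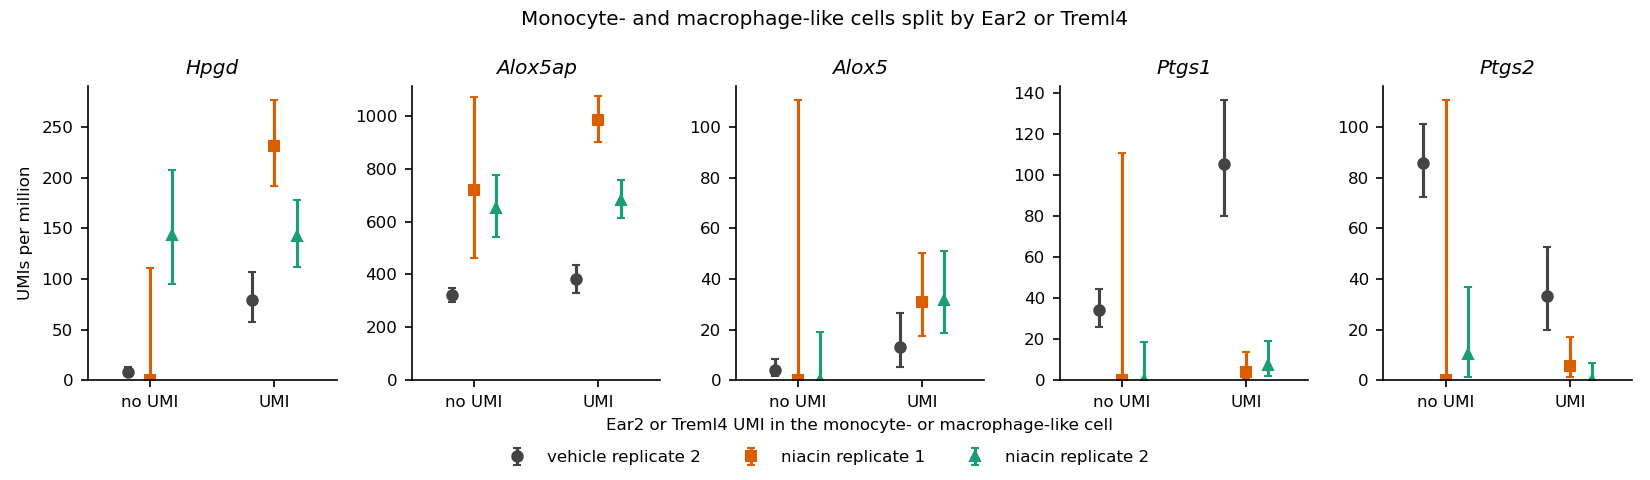
CPM of 5 members in monocyte- and macrophage-like cells with and without a UMI of *Ear2* or *Treml4*, by library (error bars are exact 95% Poisson intervals). *Hpgd* is higher in the positive cells of vehicle replicate 2 and niacin replicate 1, and among positive cells *Ptgs1* and *Ptgs2* are highest in vehicle replicate 2. The wide intervals of niacin replicate 1 on the side without a UMI come from its 5 cells there.

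In neutrophil-like cells, *Ptgs2* was 16.6-fold (9.72 to 30.04) and 12.2-fold (7.45 to 21.2) below vehicle and *Ptgs1* 4.29-fold (2.31 to 8.16) and 3.08-fold (1.72 to 5.601) below it, in a class in which 18.8% of all genes were at least 2-fold lower in both niacin libraries. *Alox5ap* did not follow, at 1.57-fold (1.35 to 1.83) and 1.31-fold (1.12 to 1.54) of vehicle. *Hpgds* met the rule for higher (2.06% of genes did), but vehicle replicate 2 had no UMI of it, and 24.5 CPM in niacin replicate 1 was at least 1.69-fold above the level of 3 UMIs (14.5 CPM) while 12.9 CPM in niacin replicate 2 lay under that level.

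The make-up of this class moved as well. Its 10 markers, granule and calgranulin genes among them, took 19.8%, 36.1% and 47.9% of its UMIs, which lowers the CPM of every other gene. *S100a8* stood at 73844, 136233 and 181792 CPM, *Cxcr2* at 1723, 555 and 484 CPM and *Csf3r* at 2149, 582 and 356 CPM. The other markers did not follow *Cxcr2*. *Retnlg* (1733, 13168 and 14237 CPM) and *Mmp8* (799, 1613 and 2024 CPM) were higher in both niacin libraries, as were *S100a9*, *Camp*, *Ngp* and *Lcn2*. *Ltf* (6781, 6546 and 9030 CPM) and *Mmp9* (1863, 1555 and 1676 CPM) changed less. Free of that share, *Ptgs2* had 2.34 UMIs per *Alox5* UMI (1.63 to 3.41) in vehicle replicate 2, 0.302 (0.161 to 0.536) in niacin replicate 1 and 0.253 (0.145 to 0.424) in niacin replicate 2. Among cells with a *Cxcr2* UMI, also a split chosen after the values had been seen, *Ptgs2* was at 597, 33.8 and 51.8 CPM. The part that neutrophil maturity has in the difference was not tested.

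Outside the myeloid classes, 1 pair of a member and a class met the 2-fold rule. *Ptger4* in T-cell-like cells was at 1.06-fold (0.713 to 1.58) and 1.08-fold (0.757 to 1.54) of vehicle, and neither of 2 members there passed 2-fold in both libraries (0.481% of genes were higher and 3.01% lower). *Ptgds* in choroid-plexus-epithelial-like cells was 2.04-fold (1.77 to 2.35) and 1.79-fold (1.55 to 2.07) above vehicle, and none of 3 members passed the rule (1.51% and 11% did). The 10 choroid plexus markers took 13.9%, 27.6% and 21.6% of the UMIs of that class. Of 4 members in B-cell-like cells, *Ptgs2* was lower (7.45% of genes were higher and 13.7% lower), which is the single vehicle cell already described.

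The genes whose levels ran most alike to a member over the 18 sums of a class and a library are given as a description, by Pearson's r of log2(CPM + 10). The sums share libraries, depth and the classes themselves. *Ptgs1* ran with *P2ry13* (r = 0.989), *Dtx4* (0.966) and *Gpr84* (0.964), and *Hpgds* with *Gpr34* (0.962), *Tanc2* (0.956) and *Adgrl2* (0.955), of which *P2ry13* and *Gpr34* are microglial markers that set the class. *Hpgd* ran with *Plxna4os1* (0.959) and *Gm5086* (0.954). *Ptgds* ran with *Kcnj13* (0.996), *Cox8b* (0.996) and *Folr1* (0.995), of which *Kcnj13* and *Folr1* set the choroid plexus class. *Ptgs2* ran with *Slfn4* (0.976), *Acod1* (0.956) and *Gm13822* (0.946). *Alox5ap* ran with *Igsf6* (0.974), *Tyrobp* (0.973) and *Fes* (0.966), *Alox5* with *Card10* (0.932), *Fpr1* (0.919) and *Cpne3* (0.918), and *Ptger4* with *Cd2bp2* (0.927), *Il2rg* (0.920) and *Mis18a* (0.920).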

How the data were processed

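UMI counts per gene and barcode of 3 droplet libraries (Chromium 3′ v3.1) were read. The authors made these deposited counts with Cell Ranger 3.1, which aligned reads with STAR to mm10, and the files hold every barcode called as a cell, with no normalization and no filter on genes or mitochondrial share. The submitters' notes give the versions. Barcodes with fewer than 200 genes or more than 20% mitochondrial UMIs were left out. A cell took the class with the most detected markers, at least 3 of 10, and cells with a tie had none. Doublets were not called, and 811 cells had at least 3 markers of a second class, whose removal is an alternative. UMIs were summed per library and class and tested with edgeR 4.0.16 (R 4.3.3, quasi-likelihood, TMM, filterByExpr). The library entered as a block, p-values were adjusted by Benjamini-Hochberg over every gene in the fit, and a class needed 10 cells or more in each library. Libraries of both treatments served as the 3 replicates. With the library as a block, p-values measure how class differences vary between these pools, not a shift of a whole pool. That spread was estimated over all classes of a fit and includes any niacin effect that differs by class. The study's methods give no test of this kind for these genes.

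Counts were also simulated for the comparison of microglia-like with monocyte- and macrophage-like cells (8663 genes). From 88 genes changed by 1 on the log2 scale, edgeR recovered 83.9% of those tested, and from 112 changed by 2, 100%. Unchanged genes made up 6.60% of its calls. The simulation gave every class the same gene profile apart from these changes, no library effect and a fixed spread not fitted to these data. Its shares therefore check the procedure and do not give the recovery in the real libraries. Shares have exact binomial intervals after thinning to 2000 UMIs, CPM and ratios exact Poisson intervals, all of which cover counting error alone. A thinned share leaves out cells with fewer UMIs than the depth of thinning. The upper limit behind a count of 0 is 3 UMIs or cells. Replicate number 2, the only one shared, stands on libraries of different treatment and pairs nothing, and the block is the library that each class was read in. Named are all members, of the further pathway genes the 5 largest positive and 5 largest negative called differences between microglia-like and monocyte- and macrophage-like cells and up to 3 called higher per other class, and the 3 genes most alike to each member, of which 1 is not reported here. Members, lists and tests were chosen with earlier results of these data known, and alternatives with DESeq2 1.42.0, other classes (scanpy 1.11.5 graph clusters) and filters were run. Locations and promoters are from GRCm38.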

Additional observations from a re-analysis of the deposited data

Results flagged for a closer look

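The *Alox5* difference between microglia-like and monocyte- and macrophage-like cells had opposite signs in the libraries of the 2 treatments, but only the vehicle difference was resolved. On the log2(CPM + 10) scale, microglia-like minus monocyte- and macrophage-like cells was 1.12 in vehicle replicate 2, -0.36 in niacin replicate 1 and -0.26 in niacin replicate 2. The exact Poisson intervals of the classes were apart in vehicle replicate 2 (19.2 to 32.6 against 3.43 to 10.5 CPM). They overlapped in niacin replicate 1 (16.3 to 25.3 against 16.6 to 47.1 CPM) and niacin replicate 2 (14.1 to 22.1 against 13.6 to 37.3 CPM). The negative sign in the niacin libraries was thus not set apart from counting error. The difference between treatments was not tested, since there is 1 vehicle library. *Alox5* in monocyte- and macrophage-like cells rests on 14, 16 and 17 UMIs. Of these, cells with a UMI of *Ear2* or *Treml4* held 7, 16 and 17 UMIs (12.95, 30.9 and 31.8 CPM in 50, 66 and 55 cells), and cells without either held 7, 0 and 0 UMIs (4.15, 0 and 0 CPM in 208, 5 and 20 cells).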

How the results depend on the processing

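Over all alternatives, 3 members were higher in microglia-like than in monocyte- and macrophage-like cells, except 2 without a replicate block, when *Hpgd* did not pass (log2 1.34, adjusted p = 0.0693). The count of lower members was 2 or 3, and 4 without a filter on low counts. Pairs of a member and a class higher than the others numbered 15, and 14 to 18 over the alternatives (15 without a replicate block). *Ptgds* between microglia-like and monocyte- and macrophage-like cells, near 0 CPM in both, turned from -0.57 to 0.40 in cells with at least 2000 UMIs and to 0.62 at a limit of 10% mitochondrial UMIs. *Alox5* turned from 0.24 to -0.25 with shared barcodes left out and to -0.55 without vehicle replicate 2, and *Ptger4* in T-cell-like minus monocyte- and macrophage-like cells from 0.24 to -0.046 with shared barcodes left out. The causes were not tested. Pairs at least 2-fold higher in the niacin libraries numbered 3, but 5 without cells that had markers of a second class, 1 in graph clusters, 7 at 1.5-fold, and 2 to 6 when a niacin library was left out. Pairs at least 2-fold lower numbered 5, but 3 in graph clusters and 6 to 7 when a niacin library was left out.

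The share of microglia-like cells with a UMI follows depth. Thinned to 1000 UMIs it was 49.3%, 41.0% and 47.7% for *Ptgs1* and 57.2%, 49.1% and 49.2% for *Hpgds*, and without thinning 83.9%, 83.6% and 79.5% and 90.1%, 86.2% and 83.3%. Few cells limit the neutrophil-like, B-cell-like and mast-cell-like values, and few UMIs limit *Ptges*, *Ptger2* and *Ptgs2* outside vehicle replicate 2.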

Other observations

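Within microglia-like cells some members differed between cells with and without a UMI of *Cst7*, a split chosen after the values had been seen. Cells with *Cst7* numbered 55, 21 and 35, in the order vehicle replicate 2, niacin replicate 1 and niacin replicate 2, and were deeper (a median of 8785, 7910 and 8182 UMIs against 4274, 4898 and 4659). *Ptgs1* was lower in the *Cst7*-positive cells of every library, at 545, 441 and 453 CPM against 775, 615 and 642 CPM. *Hpgds* was at 491, 598 and 503 CPM against 860, 692 and 653 CPM, and *Hpgd* at 110, 284 and 339 CPM against 270, 404 and 407 CPM. *Ptger4* went the other way, at 22.0, 30.2 and 22.2 CPM against 16.2, 3.26 and 4.24 CPM, from 12, 5 and 7 UMIs in the positive cells. The exact Poisson intervals of the sides overlapped for *Hpgds* in niacin replicate 1, *Hpgd* in niacin replicate 2 and *Ptger4* in vehicle replicate 2. For these genes and *Ptgs1* they were otherwise apart. *Alox5ap* was at 196, 399 and 377 CPM against 264, 419 and 392 CPM, with overlap in both niacin libraries. These are values of single libraries with no test.

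Classes too small for the tests also held members. Natural-killer-cell-like cells had *Ptger4* at 53.0, 94.3 and 24.4 CPM (88, 9 and 12 cells), and dendritic-cell-like cells had *Alox5ap* at 458, 962 and 805 CPM (16, 4 and 6 cells) and *Ptger4* at 74.9, 22.9 and 24.0 CPM.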
